A study of Caenorhabditis elegans with 51 samples.

Results

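Small RNA that came down with the Argonaute protein HRDE-1 was set directly against small RNA that came down with the Argonaute protein CSR-1 in young adult Caenorhabditis elegans, gene by gene and without the input. The comparison used 4 of the 51 samples of the series, 2 HRDE-1 and 2 CSR-1 small RNA immunoprecipitations (sRIP), chosen by their labels. The table of these libraries held 20938 gene models under 20202 gene symbols, and 10310 genes that reached 1 RPKM in at least 2 of the 4 libraries were tested. RPKM, the unit of every level below, is the number of reads scaled to the length of the gene model and to the reads of the library.

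All 4 libraries came from the strain CSS342, with the genotype Cer3(red20), SF-HRDE-1 and c-myc-CSR-1. Both precipitates therefore share the 2 tagged proteins and a fragment of oma-1 placed inside the retrotransposon Cer3. Libraries were built by ligation after a phosphatase and T4 polynucleotide kinase had treated the RNA, so capture did not depend on a monophosphate at the 5′ end. The labels name no precipitation from an untagged strain, and whether the replicates came from separate cultures is not stated in them, so each p-value reflects the spread of these libraries alone, and that spread may be technical. RNA that came down without being bound by the Argonaute, differences in yield between the tags, and the composition of each precipitate cannot be told apart in these values.

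As background, most endogenous small RNAs of the worm germline are made by RNA-dependent RNA polymerases on an mRNA template and are then loaded into one of many Argonautes. HRDE-1 is a nuclear Argonaute of the worm-specific WAGO clade, known for heritable silencing of its targets in the germline. CSR-1 is known for small RNAs against genes that the germline expresses, and it is required for fertility and chromosome segregation in embryos.

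By totals deduced from the values, the HRDE-1 libraries held 4872549 and 3248065 reads and the CSR-1 libraries 4992358 and 2991634. Gene models took 49.1% and 51.1% of the HRDE-1 reads but 40.1% and 43% of the CSR-1 reads. The RPKM values of a library summed to 405023 and 430839 for HRDE-1 and to 245828 and 263530 for CSR-1, a ratio of 1.65 in replicate 1 and 1.63 in replicate 2. A sum of RPKM gives short gene models more weight than a sum of reads does, and the shares of reads on gene models differed less than these sums. Summed RPKM as deposited was thus larger on the HRDE-1 side, and this difference in total moves with every result below. Its part in the results was examined by scaling each library to an equal sum, which lowered the median log2 difference of all genes tested by 0.62, from 0.59 to -0.03.

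Most genes stood on one side or the other. In limma's moderated test on log2(RPKM + 1), 4676 genes were higher in HRDE-1 and 2900 were lower, where a call required a log2 difference of 1 or more in size together with an adjusted p below 0.05. These are 45.4% and 28.1% of the genes tested, and 73.5% were called in either direction. Every one of the 7576 called genes had the same sign in both replicates and no overlap between the groups, but 95.1% of all genes tested did not overlap, so non-overlap alone singles out little. Scaling to an equal sum gave 3937 higher and 4035 lower genes, so that the share of calls that were higher went from 61.7% to 49.4%. None of the 7576 calls was made in the opposite direction under any of the 14 alternative settings. A log2 difference on this scale is written as HRDE-1 minus CSR-1, and it is compressed for genes at low levels.

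The log2 differences had 2 peaks with a trough between them. Between -2 and -1 lay 2411 genes, between -1 and 0 lay 1603, and between 0 and 1 lay 1118. The numbers rose again to 1856 genes between 1 and 2 and 1711 between 2 and 3, with 1077 between 3 and 4. Beyond these, 40 genes exceeded 4 on the HRDE-1 side, and 15 genes lay below -3 on the CSR-1 side. A gene could pass the filter through the 2 libraries of one group alone, and this bears mainly on the HRDE-1 side, since the 1469 genes with a mean under 2 RPKM had 1024 higher and 77 lower, with a median of 1.26. Among the 7592 genes with a mean of at least 5 RPKM, 2782 were higher and 2707 lower, the share of calls that were higher was 50.7%, and the median was -0.23.

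**Figure D1:**
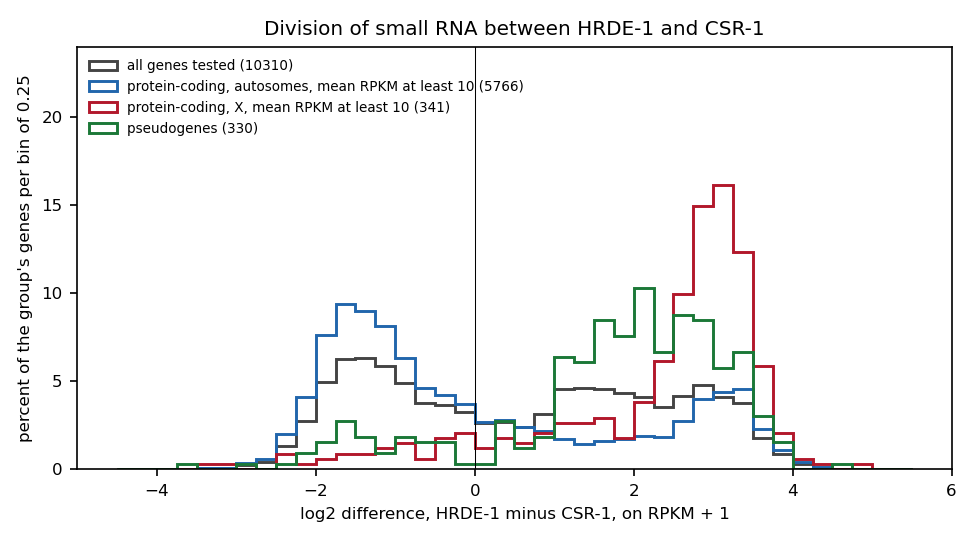
Share of genes (y axis, percent of each group per bin of 0.25) by log2 difference, HRDE-1 minus CSR-1, on RPKM + 1 (x axis), for all 10310 genes tested, for protein-coding genes with a mean of at least 10 RPKM on autosomes (5766) and on X (341), and for pseudogenes (330). All genes form a peak on each side of 0, the autosomal genes lean to the CSR-1 side with a median of -0.64, and X-linked genes and pseudogenes lie mostly on the HRDE-1 side with medians of 2.78 and 2.03.

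HRDE-1 small RNA was more concentrated, although more gene models had reads there, 15122 and 14079 against 12377 and 11425 in CSR-1. In the HRDE-1 libraries, 730 and 597 genes accounted for 50% of the summed RPKM, against 1482 and 1414 genes in the CSR-1 libraries. Genes called higher held 73.6% and 76.5% of the HRDE-1 sums, and they still held 19.9% and 20.7% of the CSR-1 sums. Genes called lower held 53.0% and 52.7% of the CSR-1 sums and 10.7% and 9.3% of the HRDE-1 sums. The division between the precipitates was therefore a matter of proportion for most genes, with small RNA of each set present in both.

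**Figure D2:**
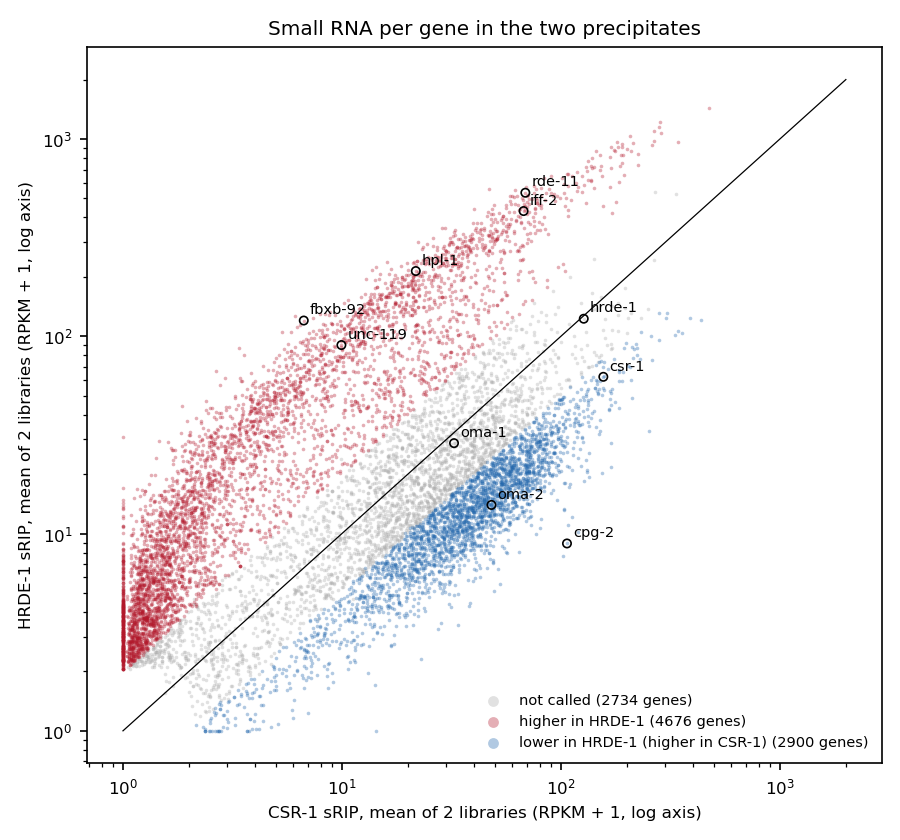
Mean level per gene in the CSR-1 precipitate (x axis) and the HRDE-1 precipitate (y axis), each the mean of 2 libraries in RPKM + 1 on log axes, for 10310 genes coloured by call, with the diagonal of equal level. Red points (4676 genes, higher in HRDE-1) and blue points (2900 genes, lower) form bands on either side of the diagonal, and hrde-1 and oma-1 lie close to it.

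The genes of the 2 precipitated proteins and of the inserted fragment were read first. The gene hrde-1, listed in the table as C16C10.3 (chromosome III, 4172337 to 4176159, WBcel235), had 118 and 126 RPKM in HRDE-1 and 118 and 134 RPKM in CSR-1. These levels overlapped, and the log2 difference was -0.05 ± 0.13 (SE, n = 2 a group, limma adjusted p = 0.726). The gene csr-1 (chromosome IV, 7957267 to 7962157) had 60.4 and 62.2 RPKM in HRDE-1 and 147 and 164 RPKM in CSR-1. Small RNA against csr-1 was thus higher in the precipitate of its own protein, by a log2 difference of -1.32 ± 0.11 (limma adjusted p = 9.83e-05).

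Small RNA of the paralogs oma-1 and oma-2, which encode CCCH zinc finger proteins needed together for oocyte maturation, was divided differently. For oma-1 (chromosome IV, 8888976 to 8890999) the levels were 26.6 and 28.8 RPKM in HRDE-1 and 30.2 and 32.8 RPKM in CSR-1, close together without overlap. For oma-2 (chromosome V, 8029439 to 8031214) they were 14.4 and 11.57 RPKM in HRDE-1 and 43.2 and 51.1 RPKM in CSR-1. The log2 difference was -0.18 ± 0.10 for oma-1 (limma adjusted p = 0.143) and -1.79 ± 0.15 for oma-2 (limma adjusted p = 8.75e-05). Small RNA from the oma-1 fragment in Cer3 and from the endogenous oma-1 gene cannot be told apart in a value per gene. The difference between the paralogs was not tested.

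Across the strains of the series, fragments of 11 genes were inserted into Cer3, oma-1 among them, and 9 of these genes passed the filter, with 2 higher and 4 lower, or 1 and 2 with a pseudocount of 5 RPKM. The gene zim-3, for a protein of chromosome pairing centres, had 11 and 8.91 RPKM in HRDE-1 and 51.1 and 52 RPKM in CSR-1. mex-5, which encodes an embryonic CCCH protein, had 14.1 and 12.9 RPKM in HRDE-1 and 53.8 and 55.7 RPKM in CSR-1. In contrast, ida-1, which encodes a protein of dense core vesicles in neurons, had 18 and 17.4 RPKM in HRDE-1 and 2.09 and 1.16 RPKM in CSR-1. In the strain used here only the oma-1 fragment was inserted.

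Genes of the oogenic germline stood mostly on the CSR-1 side. Over 178 such genes tested in 8 lists, 8 were higher in HRDE-1 and 122 lower, with a median log2 difference of -1.47 against 0.59 for all genes tested. Among genes with a mean of at least 5 RPKM, 175 of the 178 remained, again with a median of -1.47, but the median of all genes there was -0.23, so the gap to all genes was smaller. The lists were drawn up from textbook roles with earlier results of these data known, and their direction is described here, not tested.

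Eggshell and egg activation genes had 0 higher and 14 lower of 16 tested. All 16 were lower in both HRDE-1 libraries than in either CSR-1 library, as were 41.2% of all genes tested. Their summed RPKM was 302 and 292 in HRDE-1 and 1100 and 1210 in CSR-1. cpg-2 (chromosome III, 7102092 to 7103990), a chondroitin proteoglycan of the eggshell, had 9.24 and 6.57 RPKM in HRDE-1 and 98.8 and 112.26 RPKM in CSR-1. It was among the 8 genes with the largest difference on the CSR-1 side, at -3.59 ± 0.17 (limma adjusted p = 1.66e-05). cpg-3, of the same kind, had 10.8 RPKM in both HRDE-1 libraries and 74.5 and 85.4 RPKM in CSR-1. sqv-4, an enzyme that makes a sugar precursor of chondroitin, had 7.25 and 7.96 RPKM in HRDE-1 and 51.4 and 53.8 RPKM in CSR-1.

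RNA-binding proteins of the oocyte and embryo behaved alike. Of 9 oogenic CCCH zinc finger genes tested, 0 were higher and 7 lower, with oma-1 among the 2 not called. mex-1, which segregates germline factors in the embryo, had 7.64 and 6.22 RPKM in HRDE-1 and 58.5 and 53.0 RPKM in CSR-1. For pie-1, which represses transcription in germline blastomeres, the levels were 8.64 and 5.24 RPKM against 46.3 and 45.2 RPKM. For pos-1, a translational regulator of the early embryo, they were 13.2 and 8.80 RPKM against 60.7 and 63.9 RPKM. In each of these the CSR-1 libraries were several times the HRDE-1 libraries and no groups overlapped, which held for 95.1% of all genes tested.

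Among 29 genes of oocyte ribonucleoproteins and P granules, the germline condensates that hold CSR-1, 21 were lower and 2 higher. The Y-box protein gene cey-2 had 10.7 and 11.56 RPKM in HRDE-1 and 102 and 120 RPKM in CSR-1, a log2 difference of -3.20 ± 0.11 (limma adjusted p = 1.02e-05). The DEAD-box helicase gene cgh-1 had 17.9 and 17.2 RPKM in HRDE-1 and 122 and 131 RPKM in CSR-1. The members that were higher were dcap-2, for the catalytic subunit of the mRNA decapping enzyme, with a log2 difference of 1.26, and meg-4, listed as C36C9.1, with 1.06. Both lost the call when libraries were scaled to an equal sum, with log2 differences of 0.58 and 0.38, and C36C9.1 also without CSR-1 replicate 2, at 0.93.

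Translational regulators of the germline had 21 lower and 1 higher of 28 tested. lin-41, whose product holds oocytes back from maturation, had 5.30 and 3.64 RPKM in HRDE-1 and 29.8 and 33.8 RPKM in CSR-1. puf-3, which encodes an RNA-binding protein of the PUF family, had 32.6 and 29.5 RPKM in HRDE-1 and 142 and 154 RPKM in CSR-1. The higher member was puf-9, another PUF gene, with 47.4 and 48.3 RPKM in HRDE-1 and 7.39 and 5.87 RPKM in CSR-1.

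Meiotic genes followed the same side. Synaptonemal complex, axis and pairing genes had 0 higher and 15 lower of 24, recombination and repair genes 1 and 22 of 30, and cohesin and condensin genes 0 and 17 of 21. syp-4, for a central component of the synaptonemal complex (listed as H27M09.3), had 22.2 and 21.8 RPKM in HRDE-1 and 79.0 and 89.6 RPKM in CSR-1. dpy-26, for a condensin subunit, had 16.2 and 15 RPKM in HRDE-1 and 74.3 and 78.9 RPKM in CSR-1. brc-2, the worm counterpart of the human gene BRCA2, had 16.5 and 15.1 RPKM in HRDE-1 and 69.9 and 67.9 RPKM in CSR-1. rec-1, a regulator of where crossovers form (listed as Y18H1A.7), was the higher member at 1.39, and it fell to 0.67 without a call under scaling to an equal sum.

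Polarity and germline sex genes were less one-sided, with 4 higher (17.4%) and 7 lower (30.4%) of 23. The share of lower genes was near the 28.1% of all genes tested, and that of higher genes was below their 45.4%. par-5, a 14-3-3 protein gene, had 21.7 and 20.3 RPKM in HRDE-1 and 103 and 108 RPKM in CSR-1. par-2, whose product marks the posterior cortex of the zygote, had 191 and 230 RPKM in HRDE-1 and 66.9 and 74.3 RPKM in CSR-1. her-1, the gene for a secreted signal of male development, had 16.3 and 12.25 RPKM in HRDE-1 and 2.66 and 0.633 RPKM in CSR-1, but its limma adjusted p was 0.0853 and 0.067 when HRDE-1 replicate 1 or 2 was left out. The call of par-2 was lost under scaling to an equal sum, at 0.83.

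Housekeeping genes, which the germline also expresses, lay on the CSR-1 side as well. Of 566 tested in 11 lists, 43 were higher (7.6%) and 354 lower (62.5%), and their median log2 difference was -1.27. Of all genes tested, 45.4% were higher and 28.1% lower, with a median of 0.59. At a mean of at least 5 RPKM, 553 of the housekeeping genes remained with a median of -1.28. The median of all genes there was -0.23, so the gap to all genes was smaller. Of the proteasome, 30 of 33 subunit genes were lower and 1 higher. pas-6, for a subunit of the proteasome core, had 8.91 and 10.03 RPKM in HRDE-1 and 52.2 and 54.8 RPKM in CSR-1. pbs-1, another core subunit gene, had 18 and 14.4 RPKM in HRDE-1 and 86.7 and 79.5 RPKM in CSR-1.

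Cytosolic ribosomal protein genes had 60 lower and 3 higher of 79, with a median of -1.65. rps-25, of the small subunit, had 5.81 and 5.37 RPKM in HRDE-1 and 50.6 and 50.2 RPKM in CSR-1, a log2 difference of -2.97 ± 0.11 (limma adjusted p = 1.11e-05). rpl-27, of the large subunit, had 6.63 and 5.97 RPKM in HRDE-1 and 52.7 and 43.2 RPKM in CSR-1. The 2 X-linked ribosomal protein genes tested, rpl-11.2 and rpl-25.1, were both on the HRDE-1 side. The member left, rpl-42 on chromosome II, had 19.38 and 11.9 RPKM in HRDE-1 and 1.54 and 3.22 RPKM in CSR-1, and without HRDE-1 replicate 1 its limma adjusted p was 0.0603. Mitochondrial ribosomal protein genes had 34 lower and 5 higher of 65, with a median of -1.03.

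Translation factors (23 lower and 2 higher of 40) and aminoacyl-tRNA synthetases (22 lower and 0 higher of 32) were divided in the same direction. eft-3, which encodes the elongation factor that brings aminoacyl-tRNA to the ribosome, had 2.13 and 4.39 RPKM in HRDE-1 and 31.3 and 29.5 RPKM in CSR-1. inf-1, for the translation initiation helicase, had 8.16 and 6.41 RPKM in HRDE-1 and 38.1 and 37.4 RPKM in CSR-1. The exceptions among the factors were iff-2 and ife-5, described with their paralogs.

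For cell division, DNA replication genes had 23 lower and 2 higher of 35, and kinetochore and spindle genes 51 lower and 5 higher of 68. spd-2, a centrosome assembly gene, had 10.8 and 9.91 RPKM in HRDE-1 and 46.2 and 53.1 RPKM in CSR-1. zen-4, for a kinesin of cytokinesis, had 28.7 and 27.9 RPKM in HRDE-1 and 116 and 135 RPKM in CSR-1. The largest differences the other way were in kinesin genes whose products carry cargo in cilia. klp-11 had 275 and 297 RPKM in HRDE-1 and 34.0 and 35.9 RPKM in CSR-1, and klp-20 had 93.4 and 103.9 RPKM in HRDE-1 and 11.3 and 16.8 RPKM in CSR-1. Both encode motor subunits of kinesin-II.

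Splicing genes had 36 lower and 1 higher of 53, and nuclear pore and transport genes 25 lower and 3 higher of 41. ran-4, a nuclear transport gene, was among the higher ones, with 288 and 317 RPKM in HRDE-1 and 72.8 and 71 RPKM in CSR-1. ima-2, an importin gene of the germline, was lower, with 19.3 and 19.39 RPKM in HRDE-1 and 82.8 and 92.2 RPKM in CSR-1. Respiratory chain and ATP synthase genes were mixed, with 23 lower, 11 higher and 32 not called of 66. atp-2, for the catalytic subunit of the ATP synthase, had 6.99 and 7.15 RPKM in HRDE-1 and 32.5 and 34.0 RPKM in CSR-1, while nduf-5, for a subunit of complex I, had 114 and 115 RPKM in HRDE-1 and 23.4 and 18.8 RPKM in CSR-1.

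Chaperone genes (27 lower and 10 higher of 54) lay on both sides. hsp-1, the constitutive Hsp70 gene, had 20.8 and 19.2 RPKM in HRDE-1 and 126 and 136 RPKM in CSR-1. cct-5, of the cytosolic chaperonin, had 4.04 and 2.87 RPKM in HRDE-1 and 33.3 and 41.9 RPKM in CSR-1, a log2 difference of -3.12. The small heat shock gene hsp-12.6 had 10.5 and 9.25 RPKM in HRDE-1 and no read in CSR-1, so that it was at least 8.85-fold higher against a floor of 3 reads over the group. The heat-inducible hsp-16.48 and its near-identical copy hsp-16.49 had equal values, 48.5 and 47.7 RPKM in HRDE-1 and 3.25 and 4.64 RPKM in CSR-1, so reads of the copies cannot be told apart.

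**Figure D3:**
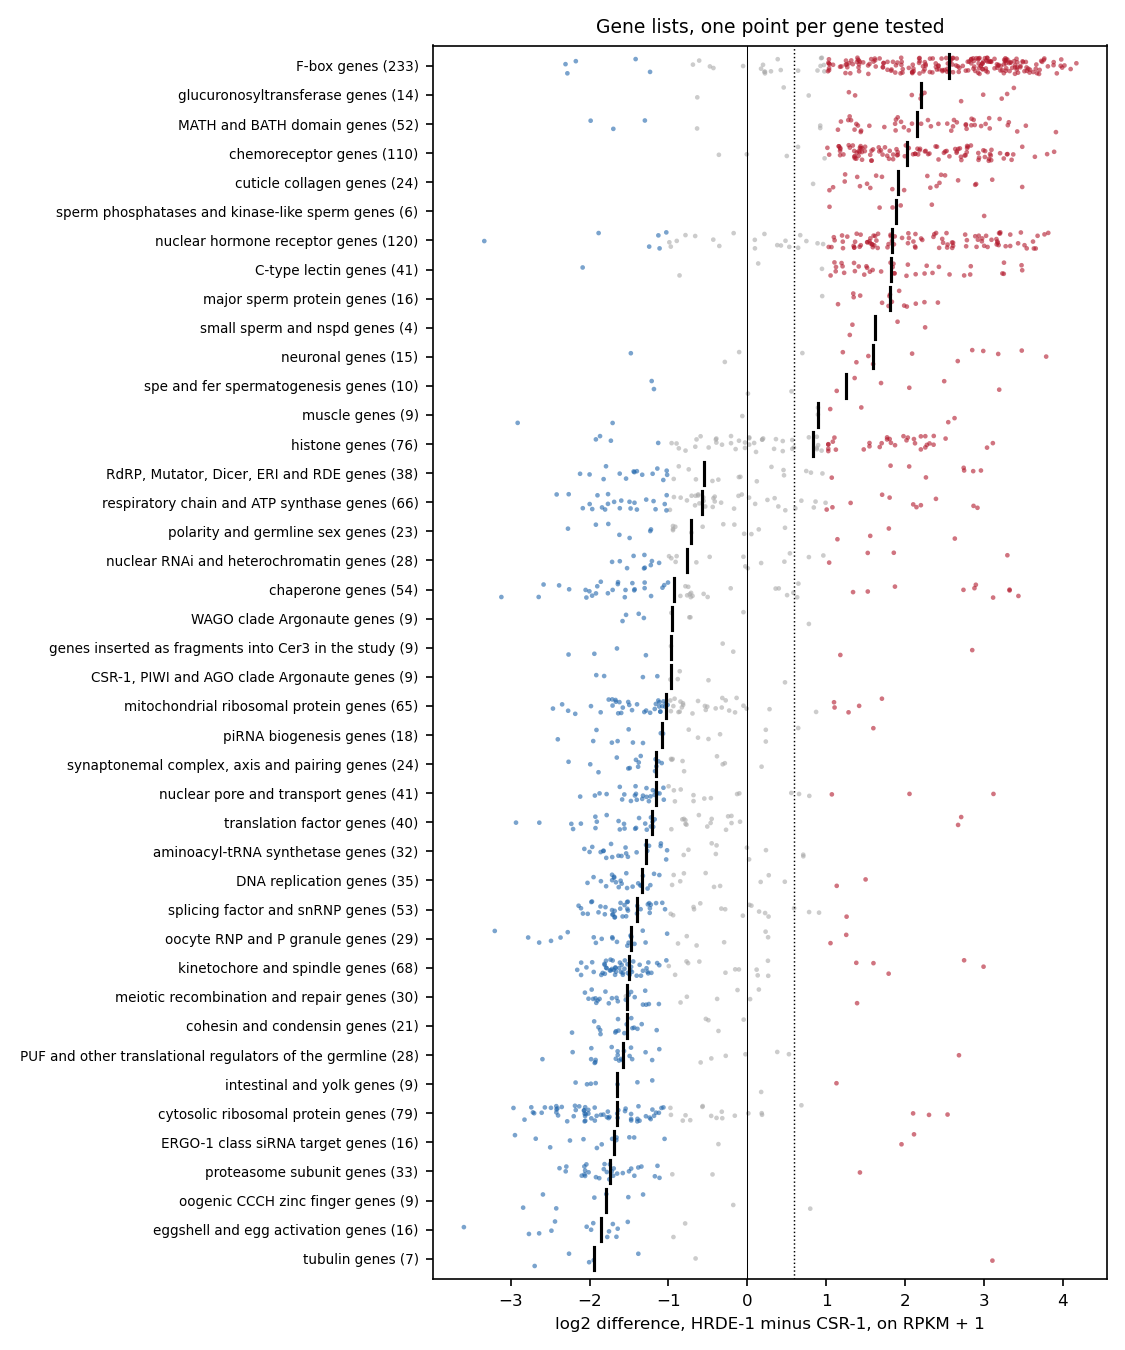
Log2 difference, HRDE-1 minus CSR-1, on RPKM + 1 (x axis) for each gene tested (1 point a gene, red higher, blue lower, grey not called) in 42 gene lists (y axis, number tested in brackets), ordered by median (black bars), with the median of all genes tested, 0.59, as a dotted line. The medians of 14 lists lie above 0, with F-box genes at 2.56, and those of 28 lie below 0, with eggshell genes at -1.86.

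Gene families that have expanded in nematodes stood on the HRDE-1 side. Of 570 tested members of 6 such lists, 501 were higher (87.9%) and 15 lower (2.6%), with a median of 2.19. All genes tested had 45.4% higher and 28.1% lower with a median of 0.59, and those with a mean under 2 RPKM had 69.7% higher. With a pseudocount of 5 RPKM in place of 1, 300 of the 570 were higher and their median was 1.09. At a mean of at least 5 RPKM 285 of these members were left, of which 251 were higher. A large part of these families did not pass the filter, and a member could pass it through the HRDE-1 libraries alone, so the counts describe the genes with small RNA and not the families. Sums over all members in the table do not depend on the filter. Of the RPKM of both precipitates summed over all genes, HRDE-1 held 62.5% in replicate 1 and 62.4% in replicate 2. F-box genes, whose products choose proteins for ubiquitination, summed to 14800 and 16200 RPKM in HRDE-1 and 2110 and 2420 RPKM in CSR-1. MATH and BATH domain genes, which encode adaptors of another ubiquitin ligase, summed to 5800 and 6860 RPKM in HRDE-1 and 1160 and 1320 RPKM in CSR-1. HRDE-1 thus held 87.5% and 87% of the F-box sums and 83.3% and 83.9% of the MATH and BATH sums.

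Of 356 F-box genes in the table, 233 passed the filter, and 208 were higher and 5 lower, with a median of 2.56. fbxb-92 (chromosome II, 3746428 to 3747505) had 117 and 121 RPKM in HRDE-1 and 6.40 and 4.98 RPKM in CSR-1, a log2 difference of 4.17 ± 0.13 (limma adjusted p = 1e-05). fbxa-166 had 89.1 and 92.4 RPKM in HRDE-1 and 4.76 and 4.54 RPKM in CSR-1. By letter class, fbxb genes had 93 higher and 0 lower of 95, fbxa genes 89 and 5 of 106, and fbxc genes 26 and 0 of 32. The lower members included fbxa-61, with 4.92 and 3.21 RPKM in HRDE-1 and 24 and 23.3 RPKM in CSR-1. Chromosome II held 94 of the tested F-box genes, of which 86 were higher and 0 lower. It also held 41 of the 52 tested MATH and BATH genes, of which 38 were higher and 0 lower.

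The MATH and BATH list had 46 higher and 3 lower of 52 tested. math-7 had 42.3 and 43.3 RPKM in HRDE-1 and 1.46 and 2.43 RPKM in CSR-1. The 3 lower members, bath-40, math-33 and bath-42, lay on chromosomes I, V and III. bath-40 had 24.9 and 19.3 RPKM in HRDE-1 and 86.2 and 94 RPKM in CSR-1.

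Nuclear hormone receptor genes, a family of ligand-dependent transcription factors, had 120 of 280 tested, with 94 higher and 6 lower, and 52 higher with a pseudocount of 5 RPKM. nhr-190 had 90.8 and 100 RPKM in HRDE-1 and 6.16 and 5.52 RPKM in CSR-1. Against this, nhr-4 had 1.71 and 0.914 RPKM in HRDE-1 and 22.1 and 21.8 RPKM in CSR-1, a log2 difference of -3.34 ± 0.23 (limma adjusted p = 4.74e-05). The lower members also included nhr-49, which controls fat metabolism, with 7.88 and 7.28 RPKM in HRDE-1 and 16.4 and 16.5 RPKM in CSR-1, a difference of -1.03 that was no longer called without HRDE-1 replicate 2, at -0.98.

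Chemoreceptor genes, which are expressed in sensory neurons, had 110 of 1339 tested, with 105 higher and 0 lower, and the remaining 5 not called. With a pseudocount of 5 RPKM 45 were higher. Over all members they summed to 1610 RPKM in each HRDE-1 library and to 142 and 174 RPKM in CSR-1. srsx-25 had 13.2 and 14.5 RPKM in HRDE-1 and no read in either CSR-1 library, at least 34.08-fold higher against the floor. C-type lectin genes, many of them linked to defence, had 37 higher (13 with a pseudocount of 5 RPKM) and 1 lower of 41, the lower one being clec-87 with 20.5 and 16.6 RPKM in HRDE-1 and 85.8 and 77.6 RPKM in CSR-1. Cytochrome P450 genes, of detoxification, a family added after its values were seen, had 16 higher and 1 lower of 20 tested. Glucuronosyltransferase genes, also of detoxification, had 11 higher and 0 lower of 14, or 7 higher with a pseudocount of 5 RPKM, and ugt-31 had 259 and 290 RPKM in HRDE-1 and 24.2 and 33.1 RPKM in CSR-1.

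Cuticle collagen, neuronal and sperm genes were also mainly on the HRDE-1 side, mostly at low levels where the calls depend on the pseudocount. Over the 57 somatic genes tested, collagens included, 39 were higher (68.4%) and 10 lower (17.5%), against 20 and 1 with a pseudocount of 5 RPKM. Of all genes tested, 45.4% were higher and 28.1% lower. Small RNA against a gene is no measure of the presence of a cell type, so these lists name no cells. Neuronal genes had 11 higher and 1 lower of 15, or 7 higher with that pseudocount. cha-1, for the enzyme that makes acetylcholine (listed as ZC416.8a), had 97.6 and 95 RPKM in HRDE-1 and 7.56 and 7.87 RPKM in CSR-1. ric-4, for the synaptic protein SNAP-25, had 35.8 and 40.5 RPKM in HRDE-1 and 2.14 and 1.53 RPKM in CSR-1. Cuticle collagen genes had 23 higher and 0 lower of the 24 that passed among 158, or 11 higher with that pseudocount. The median of these 24 was 5.7 and 4.69 RPKM in HRDE-1 but 0.478 and 0.745 RPKM in CSR-1. Members could pass the filter through the HRDE-1 libraries alone, so the count of higher genes is in part set by the filter. col-38 had 85.8 and 91.1 RPKM in HRDE-1 and 11.5 and 10.5 RPKM in CSR-1.

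Muscle genes had 4 higher and 2 lower of 9, which is 44.4% and 22.2% and near the 45.4% and 28.1% of all genes tested. unc-68, for the ryanodine receptor, had 15.6 and 17.7 RPKM in HRDE-1 and 1.61 and 2.11 RPKM in CSR-1. unc-60, whose locus encodes cofilin proteins of muscle and of other cells, had 9.3 and 10.03 RPKM in HRDE-1 and 72.9 and 86.1 RPKM in CSR-1. Intestinal and yolk genes went the other way, with 7 lower and 1 higher of 9, at low levels, and 0 lower with a pseudocount of 5 RPKM. The yolk protein gene vit-1 had 0.0404 and 0.0607 RPKM in HRDE-1 and 3.75 RPKM in both CSR-1 libraries, and vitellogenin genes share much sequence, so the split of reads among them is uncertain.

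Sperm genes had 31 higher (86.1%) and 2 lower of 36 tested in 4 lists, at low levels. Of all genes tested 45.4% were higher, and of those with a mean under 2 RPKM 69.7%. A sperm gene could pass the filter through the HRDE-1 libraries alone, so the count of higher genes is in part set by the filter. The major sperm protein genes tested had a median of 0 RPKM in both CSR-1 libraries. With a pseudocount of 5 RPKM, 6 of the sperm genes were higher and 1 lower and the median went from 1.80 to 0.63. Only 7 of the sperm genes had a mean of at least 5 RPKM, with 4 higher and 2 lower. Major sperm protein genes, which encode near-identical cytoskeletal proteins and signals of sperm, had 15 higher and 0 lower of 16 (1 higher with that pseudocount), of which 10 had no read in either library of a group, and summed to 65.7 and 60.8 RPKM in HRDE-1 and 4.91 and 2.98 RPKM in CSR-1. Their reads may be shared among copies. spe-41, for a calcium channel that sperm need to fertilise, had 50.2 and 57.4 RPKM in HRDE-1 and 4.36 and 5.65 RPKM in CSR-1. The lower members were spe-39 and spe-48 (listed as Y51F10.10), with log2 differences of -1.21 and -1.18, and Y51F10.10 lost its call without HRDE-1 replicate 2, at -0.99. spe-39, which acts in vesicle traffic, had 25.6 and 21.2 RPKM in HRDE-1 and 56.7 and 54 RPKM in CSR-1.

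Genes of the small RNA pathways themselves lay on both sides, with 13 higher (13.5%) and 42 lower (43.8%) of 96. Of all genes tested, 45.4% were higher and 28.1% lower. Argonaute genes were lower or not called. Of the 9 WAGO clade genes tested, 4 were lower (44.4%) and 0 higher, and the same numbers held for the 9 tested of the CSR-1, PIWI and AGO clades. wago-1, listed as R06C7.1, had 20.8 and 18.9 RPKM in HRDE-1 and 61.0 and 61.8 RPKM in CSR-1. wago-4, listed as F58G1.1, had 64.8 and 65.3 RPKM in HRDE-1 and 178 and 204 RPKM in CSR-1. rde-1, the Argonaute of primary siRNAs in RNA interference, had 11.16 and 11.5 RPKM in HRDE-1 and 43.3 and 47.8 RPKM in CSR-1.

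The genes of RNA-dependent RNA polymerases, Mutator proteins, Dicer and the ERI and RDE factors had 8 higher (21.1%) and 15 lower (39.5%) of 38. With a pseudocount of 5 RPKM 9 were lower. The highest level among them was that of rde-11, an RNA interference factor listed as B0564.11 (chromosome IV, 13105200 to 13106927), with 494 and 572 RPKM in HRDE-1 and 59.3 and 76.2 RPKM in CSR-1. Its log2 difference was 2.96 ± 0.19 (limma adjusted p = 3.65e-05). eri-6, listed as C41D11.1, had 113 and 139 RPKM in HRDE-1 and 15.3 and 20.7 RPKM in CSR-1. The neighbouring eri-7, listed as C41D11.7, whose transcript is joined to that of eri-6 by trans-splicing to encode a single helicase, had 29.7 and 26.6 RPKM in HRDE-1 and 12.5 and 13.1 RPKM in CSR-1. On the other side, rde-2, a Mutator gene, had 15.7 and 14.7 RPKM in HRDE-1 and 60.9 and 67.1 RPKM in CSR-1, and eri-1, for an exonuclease, had 12.18 and 10.2 RPKM in HRDE-1 and 41.5 and 42.4 RPKM in CSR-1.

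piRNA biogenesis genes had 10 lower and 1 higher of 18. prde-1, a factor of piRNA transcription listed as F21A3.5, had 12 and 11.7 RPKM in HRDE-1 and 62.6 and 71.2 RPKM in CSR-1. parn-1, for an exonuclease that trims piRNAs, listed as K10C8.1, had 174 and 209 RPKM in HRDE-1 and 57.2 and 68 RPKM in CSR-1, and its log2 difference of 1.60 became 0.87 without a call under scaling to an equal sum. Nuclear RNAi and heterochromatin genes had 10 lower (35.7%) and 4 higher (14.3%) of 28, against 28.1% and 45.4% of all genes tested. mes-2, for the histone methyltransferase of the worm Polycomb complex, had 16.4 and 14.2 RPKM in HRDE-1 and 45.7 and 45.9 RPKM in CSR-1.

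Targets of ERGO-1 class siRNAs, a group of duplicated genes and pseudogenes whose small RNA depends on the Argonaute ERGO-1, had 13 lower and 2 higher of 16. The pseudogene W04B5.1 had 26.7 and 37.6 RPKM in HRDE-1 and 247 and 256 RPKM in CSR-1, a log2 difference of -2.95 ± 0.17 (limma adjusted p = 3.04e-05). Y17D7B.4 had 18.8 and 20.3 RPKM in HRDE-1 and 125 and 137 RPKM in CSR-1. The pseudogene W05H12.2, in contrast, had 262 and 302 RPKM in HRDE-1 and 63.3 and 65.2 RPKM in CSR-1. C44B11.6, E01G4.5 and K02E2.6, which are 3 of the 5 genes of the CSR-1 side with the highest level there, belong to this list.

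Histone genes had 33 higher (43.4%), 4 lower (5.3%) and 39 not called of 76, with a median of 0.83. All genes tested had 45.4% higher and 28.1% lower with a median of 0.59. The share of higher histone genes was thus near that of all genes, and the share of lower ones was smaller. Under scaling to an equal sum the histone genes had 23 higher and 12 lower with a median of 0.20. Of the 76, 30 shared all 4 values with another histone gene, so copies are not independent entries. his-37, an H4 gene, had 344 and 404 RPKM in HRDE-1 and 62.3 and 66.6 RPKM in CSR-1. Among the lower members, hil-4, a linker histone gene, had 43.3 and 47.9 RPKM in HRDE-1 and 163 and 188 RPKM in CSR-1. hcp-3, the gene of the centromeric histone H3 variant, was 1 of the 5 highest genes of the CSR-1 side, with 96.4 and 114 RPKM in HRDE-1 and 317 and 366 RPKM in CSR-1.

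Some related genes fell on opposite sides. The sets that follow were chosen after their values were seen, so they are a description, and the difference between members was not tested. iff-2, for the translation factor eIF5A, had 408 and 453 RPKM in HRDE-1 and 64 and 69.0 RPKM in CSR-1. Its germline paralog iff-1 had 25.7 and 29.8 RPKM in HRDE-1 and 55.5 and 54.3 RPKM in CSR-1. The log2 differences were 2.67 for iff-2 and -0.96 for iff-1, the latter just short of a call.

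Among genes for the cap-binding factor eIF4E, ife-5 stood apart with 171 and 185 RPKM in HRDE-1 and 24.3 and 28.4 RPKM in CSR-1, a log2 difference of 2.71. ife-3 had -1.78 and ife-1 had -1.22, while ife-2 and ife-4 were not called, at -0.20 and -0.78. For ribosomal protein pairs, rpl-11.2 had a log2 difference of 2.54 and rpl-11.1 had -1.39. rpl-25.1 had 2.10, with 2 reads in CSR-1, and rpl-25.2 had -2.42. The proteasome lid genes rpn-6.2 (listed as F59B2.5) and rpn-6.1 (listed as rpn-6) had 1.43 and -1.74, and F59B2.5 lost its call under scaling to an equal sum, at 0.74, and without HRDE-1 replicate 1, with a limma adjusted p of 0.0559.

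In chromatin, hpl-1 and hpl-2 both encode heterochromatin protein 1. hpl-1 had 205 and 221 RPKM in HRDE-1 and 20.7 and 20.8 RPKM in CSR-1, a log2 difference of 3.3 ± 0.10 (limma adjusted p = 1e-05). hpl-2 had 79.1 and 84.2 RPKM in HRDE-1 and 55.3 and 56.3 RPKM in CSR-1, a log2 difference of 0.54 that was not called. The genes his-71 and his-72, which encode the histone variant H3.3, had log2 differences of 3.11 and -1.73.

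The RNA-dependent RNA polymerase genes lay on both sides. rrf-2 had 54.4 and 57.5 RPKM in HRDE-1 and 5.96 and 7.78 RPKM in CSR-1. rrf-3, which is needed for ERGO-1 class siRNAs, had 12.1 and 10.7 RPKM in HRDE-1 and 50.9 and 54.9 RPKM in CSR-1. ego-1, whose product makes small RNAs of the germline, had 29.3 and 31.5 RPKM in HRDE-1 and 65.1 and 77.7 RPKM in CSR-1. The log2 differences were 2.87 for rrf-2, -2.12 for rrf-3 and -1.2 for ego-1. rrf-1, the neighbour of ego-1 on chromosome I, had -0.44 and was not called.

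Likewise, the β-tubulin gene tbb-6 had 28.7 and 27.3 RPKM in HRDE-1 and 2.31 and 2.41 RPKM in CSR-1. The broadly expressed tbb-1 had 37.0 and 35.8 RPKM in HRDE-1 and 142 and 157 RPKM in CSR-1. tbb-2, also broadly expressed, had 7.49 and 7.37 RPKM in HRDE-1 and 56.0 and 51.4 RPKM in CSR-1. In the P granule gene family meg, all 4 members are X-linked. meg-1 and meg-2 were lower, at -2.64 and -1.65, meg-3 (listed as gei-12) was not called at -0.64, and meg-4 was higher at 1.06. Without HRDE-1 replicate 1, meg-2 was not called (limma adjusted p = 0.0672).

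**Figure D4:**
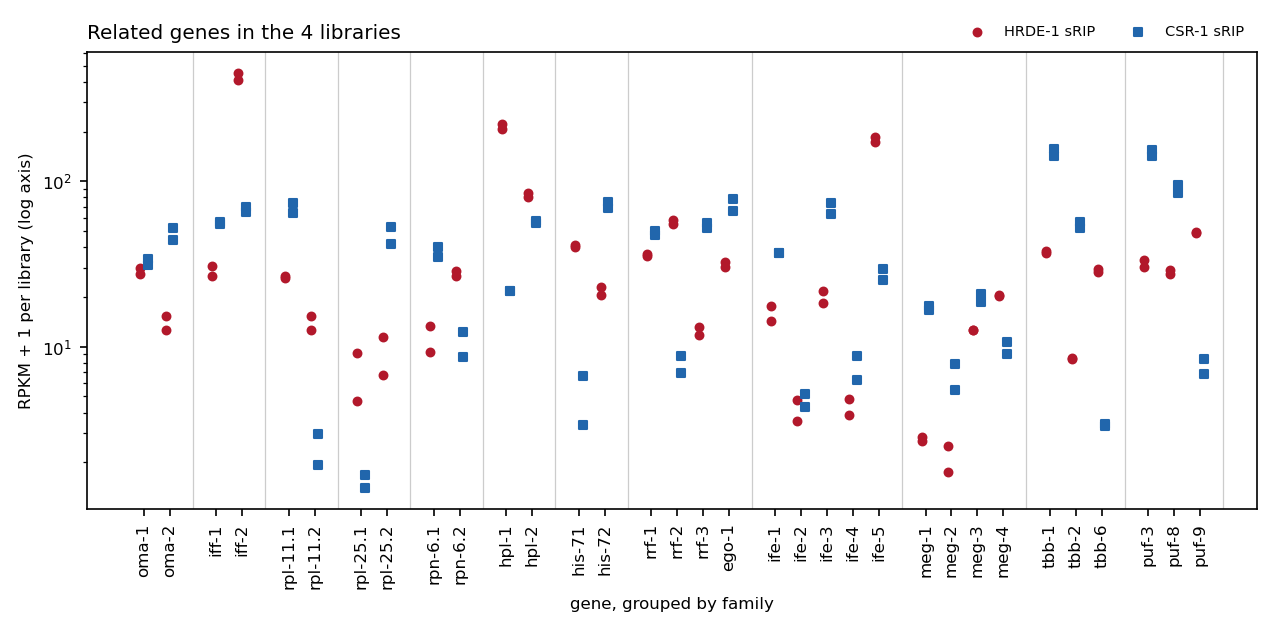
Level in each of the 4 libraries (y axis, RPKM + 1 on a log axis) of related genes grouped by family (x axis), with 2 HRDE-1 libraries as red circles and 2 CSR-1 libraries as blue squares. Members of 1 family can lie on opposite sides, as for the H3.3 genes his-71 and his-72. The former is at 40.3 and 39.3 RPKM in HRDE-1 against 2.35 and 5.61 in CSR-1, the latter at 19.5 and 21.9 against 67.7 and 73.9.

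The largest differences on the HRDE-1 side belonged to genes known only by sequence names. C11H1.7 (chromosome X, 14327409 to 14330195) had 32.9 and 26.6 RPKM in HRDE-1 and no read in either CSR-1 library, so that it was at least 51.45-fold higher against the floor of 3 reads over the group. F46E10.3 (chromosome V, 6518297 to 6519042) had 61.9 and 68.6 RPKM in HRDE-1 and 1.98 and 1.32 RPKM in CSR-1, a log2 difference of 4.66 ± 0.17 (limma adjusted p = 1.1e-05). F21C3.6 had 125 and 126 RPKM in HRDE-1 and 4.28 and 5.96 RPKM in CSR-1. The pseudogene D2024.10 rested on few CSR-1 reads, and its ratio of normalised reads was 42.3 (95% interval 11.4 to 355, counting error only).

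On the CSR-1 side the largest differences included a long intergenic noncoding RNA. H09G03.1 (chromosome III, 3226514 to 3228057) had 6.98 and 6.41 RPKM in HRDE-1 and 94.7 and 107 RPKM in CSR-1, a log2 difference of -3.73 ± 0.11 (limma adjusted p = 1e-05). The pseudogene Y9D1A.2 had 10.4 and 8.10 RPKM in HRDE-1 and 124 and 114 RPKM in CSR-1. F19G12.4, a short X-linked model, had no read in HRDE-1 and 9.21 and 17.3 RPKM in CSR-1, so that it was at least 5.76-fold lower in HRDE-1.

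The highest levels were unequal. On the HRDE-1 side, F02C12.3 had 1240 and 1640 RPKM in HRDE-1 and 417 and 534 RPKM in CSR-1, with a limma adjusted p of 0.0146, and it lost its call under scaling to an equal sum, at 0.86, and when any 1 library was left out, with adjusted p from 0.0856 (without CSR-1 replicate 2) to 0.507 (without HRDE-1 replicate 2). B0250.8 had 1060 and 1390 RPKM in HRDE-1 and 247 and 315 RPKM in CSR-1, and its limma adjusted p became 0.12 and 0.155 when HRDE-1 replicate 1 or 2 was left out. On the CSR-1 side the highest was C44B11.6, with 111 and 129 RPKM in HRDE-1 and 409 and 458 RPKM in CSR-1. asf-1, now unc-85, a histone chaperone gene, had 99.9 and 105 RPKM in HRDE-1 and 332 and 379 RPKM in CSR-1. F02C12.3 thus stood above C44B11.6 in both CSR-1 libraries as well, although it was called higher in HRDE-1.

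By annotated kind, 264 of 330 pseudogenes tested were higher and 28 lower, with a median of 2.03, or 174 higher and a median of 1.08 with a pseudocount of 5 RPKM. Protein-coding genes had 4267 higher and 2800 lower of 9692. Of 21 genes annotated as other noncoding RNA, 12 were higher (57.1%) and 2 lower (9.5%), against 45.4% and 28.1% of all genes tested. C30E1.9 on X had 460 and 508 RPKM in HRDE-1 and 55.7 and 59 RPKM in CSR-1. Of 7 long intergenic noncoding RNAs, 5 were lower (71.4%) and 1 higher (14.3%), and so few genes give only a rough share. Y48C3A.1, the higher one, had 211 and 263 RPKM in HRDE-1 and 42.6 and 60.5 RPKM in CSR-1.

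Most X-linked genes were on the HRDE-1 side. Of all protein-coding genes tested, 644 of 1031 on X were higher (62.5%) and 125 lower, with a median of 1.5. On the autosomes 3623 of 8661 were higher (41.8%) and 2675 lower, with a median of 0.26, and chromosome V had 52.3% higher. The contrast was larger at a mean of at least 10 RPKM over the 4 libraries, a cut added after values were seen. A gene could reach that mean through 1 group alone. At this cut 281 of 341 X-linked protein-coding genes were higher (82.4%) and 18 lower, with a median of 2.78. Autosomal genes at the same cut had 1717 of 5766 higher (29.8%) and 2381 lower (41.3%), with a median of -0.64. Single autosomes ranged from 26% higher on III to 35.1% on V. Scaling to an equal sum left 75.1% of the X-linked and 25.3% of the autosomal genes higher. The 18 X-linked genes lower at this cut were looked up after their values were seen. They included T24D5.6 with 10.1 RPKM in both HRDE-1 libraries and 101.07 and 112.03 RPKM in CSR-1. tag-150, now cgef-1, had 2.36 and 2.22 RPKM in HRDE-1 and 23.5 and 29.4 RPKM in CSR-1, and toca-1, an endocytosis gene, had 3.90 and 3.69 RPKM in HRDE-1 and 25.6 and 22.4 RPKM in CSR-1.

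**Figure D5:**
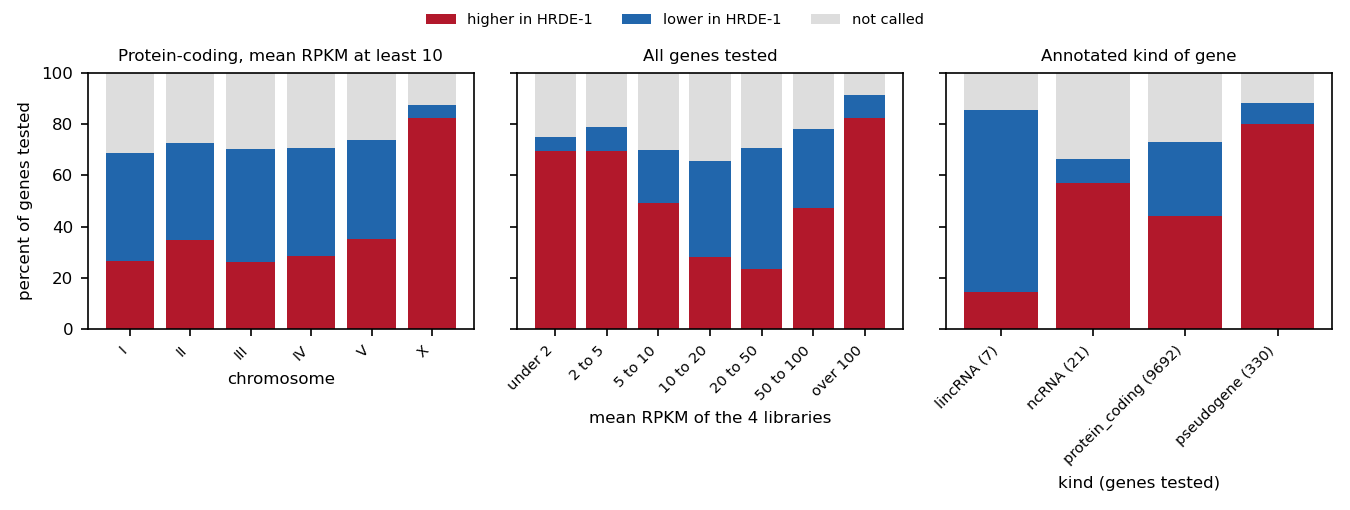
Percent of genes tested (y axis) higher in HRDE-1 (red), lower (blue) or not called (grey) by chromosome for protein-coding genes with a mean of at least 10 RPKM, by mean RPKM of the 4 libraries for all genes tested, and by annotated kind of gene. X stands out with 82.4% higher, against 62.5% of X-linked protein-coding genes without that cut. The lower calls are most frequent at 20 to 50 RPKM (47.4%), and genes over 100 RPKM are 82.4% higher.

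Level and structure moved with the division too. Genes with a mean over 100 RPKM had 516 higher and 57 lower of 626, while those between 20 and 50 RPKM had 693 higher and 1396 lower of 2945. This mean was taken over the same 4 libraries that were compared, and a gene could reach a class through 1 group alone. Level and call are therefore not independent. Among protein-coding genes with a mean of at least 10 RPKM, the fifth with the shortest coding sequence had 48.2% higher and 23.8% lower, and the fifth with the longest had 14.1% higher and 57.5% lower. The median coding length was 936 bases for higher and 1384.5 bases for lower genes. Genes with 1 exon had 65.3% higher and 7.2% lower of 222, and genes with 13 or more exons had 32.8% higher and 35.1% lower of 800.

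On the autosomes, protein-coding genes nearer the ends of a chromosome had 2535 higher and 1471 lower of 5340, against 1088 and 1204 of 3321 in the middle part of the same length as each end. Called neighbours fell on the same side in 62.0% of 7061 pairs, compared with 54.6% to 58.0% of pairs spaced from 2 to 200 called genes apart. Genes named only by sequence had 2525 higher and 859 lower of 4439, and genes with a class name had 2151 higher and 2041 lower of 5871. These features overlap with one another and with the gene lists, and their separate parts in the division were not tested.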

How the data were processed

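The values used were RPKM per gene model, deposited by the authors in 1 table for the sRIP libraries; the submitters' processing notes name Bowtie 1.2.3. Not given in the sources used here were the genome build, the annotation, the strand, the read lengths and the handling of reads with several matches. All values had a labelled sample (0 columns without one). The table of the other 45 samples was not used here. Replicates 1 and 2 were compared as 2 HRDE-1 against 2 CSR-1 samples.

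For a symbol with several models, the model with the highest mean was kept. Genes that reached 1 RPKM in at least 2 libraries were tested with limma 3.58.1 in R 4.3.3 on log2(RPKM + 1), with a trended prior, no covariate, two-sided moderated tests and Benjamini-Hochberg adjustment over all genes tested. A call needed a log2 difference of 1 or more in size and an adjusted p below 0.05. A count test was not used, since RPKM are not counts.

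Library totals and reads were deduced from the steps of the RPKM values. All 80624 values above 0 came out whole (tolerance 1e-06), a weak check, because model lengths were deduced from the same values. Reads serve only the totals, floors, intervals and replicate comparison. Intervals and floors cover counting error only, since the reads carry no molecular identifiers and are not independent molecules. By chi-square per degree of freedom over models with at least 10 reads a pair, the HRDE-1 pair differed by 1.86 (10966 models) and the CSR-1 pair by 1.03 (8605 models, chi-square p = 0.0314). The input pair, outside this comparison, differed by 0.96 (9741 models). Both precipitate pairs were entered as 2 samples by their replicate labels. A value as near to sampling noise as 1.03 cannot show that the CSR-1 libraries are separate samples.

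Models were matched by sequence name to the Ensembl annotation of WBcel235 (20340 of 20938), which gave current names, kinds, positions and coding lengths. Coordinates are of that annotation, not of the authors' unstated build.

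The 42 gene lists and the members of the comparison were chosen with earlier results of these data known. Genes named were the 8 with the largest difference in each direction (higher group at least 10 RPKM), the 5 highest in each direction, up to 3 called members per direction of each list (at least 5 RPKM) or else 2 by level, and hrde-1, csr-1, oma-1 and oma-2, and of these the text gives a part. Paralog sets, cytochrome P450 genes, noncoding RNAs, X-linked exceptions and the splits by chromosome at a set level were added after values were seen.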

Additional observations from a re-analysis of the deposited data

How the results depend on the processing

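The count of genes higher in HRDE-1, 4676, became 2982 with a pseudocount of 5 RPKM and 2782 of 7592 genes with a mean of at least 5 RPKM, where low genes were left out and 2707 were lower. Leaving out 1 library at a time gave 4151 to 4563 higher and 2682 to 2932 lower genes, the lone library of an arm being assumed to vary like the other pair. Scaling to an equal summed RPKM gave 3937 higher and 4035 lower, and lower members went from 4 to 7 for the WAGO clade, 4 to 8 for the other Argonautes, 10 to 16 for nuclear RNAi, 7 to 14 for polarity and sex, 34 to 52 for mitochondrial ribosomal and 23 to 41 for respiratory chain genes. With the replicate number as a block, the counts were 4683 and 2904; deviations of same-numbered libraries correlated at 0.046 across genes, and 2 pairs do not establish a pairing. Taking the CSR-1 pair as 1 sample, an alternative chosen after seeing the data, gave 4560 and 2845. No list median changed sign, over 42 lists in 13 alternatives and the 39 lists that had a median at a mean of at least 5 RPKM. X-linked protein-coding genes with a mean of at least 10 RPKM stayed 75.1% to 83.0% higher. Among 206 named genes, the uncalled hrde-1 (listed as C16C10.3) went to 0.00 without HRDE-1 replicate 1 and ranged from -0.14 to 0.04 with 1 library left out, and the uncalled cpr-6, at 0.18, went to -0.37 under equal sums and ranged from -0.03 without CSR-1 replicate 2 to 0.39 without CSR-1 replicate 1; the cause was not tested. With 2 libraries a side, no untagged control and RPKM instead of counts, the error of low genes is poorly known, and calls of low genes depend on the pseudocount (at 5 RPKM, 14 of the named genes lost theirs, among them vit-1, nhr-49, rpl-25.1 and meg-2).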
